A study of Hakea prostrata with 26 samples.

Results

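A set of 93 genes of Hakea prostrata was higher in cluster roots of mid age, on day 4 or day 7, than on days 0 and 12. These mid-peak genes were chosen by their values from 25047 genes whose assembled transcripts were summed. The level used is log2(CPM + 1), where CPM is the estimated count relative to its library's total after TMM scaling over all 26 libraries, in the usual CPM unit. A gene was taken when its higher level of days 4 and 7 was at least 4 and exceeded the higher level of days 0 and 12 by at least 1.5, and when its 5 wild leaf stage means spanned less than 1.5. The level alone was met by 9107 genes, the level and the difference by 137, and 44 of those were set aside by the leaf span, which left 93, under the limit of 150.

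Cluster roots are dense groups of short, determinate rootlets that plants of the Proteaceae form in phosphorus-poor soil. They are known to be short-lived: the rootlets elongate, mature, release carboxylates and phosphatases that free phosphate bound in soil, and then senesce. White roots are the other, non-cluster roots of the same root system. The deposited IDs are names of assembled transcripts with no gene name or description, so no role is given to any gene here, and the labelled organs could not be checked against marker genes.

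The series holds RNA from leaves of 5 wild plants and from hydroponically grown plants of the same species. Hydroponics gave cluster roots sampled at days 0, 1, 4, 7 and 12. It also gave white roots, and fully grown leaves labelled mature, each supplied with 1, 10 or 50 µM phosphate (Pi). Each hydroponic condition is 1 library. The labels do not say from what event the days are counted, what Pi supply the cluster roots had, or how many plants made a library. Wild leaves at stages 1, 2, 3, 4 and M (the letter is not explained) gave 3 libraries each, 15 in all, from plants that had no treatment. Estimated counts per library totalled 8163081 to 10857613 in cluster roots, 9486439 to 11508234 in white roots, 17130939 to 20283815 in mature leaves and 1517487 to 11418655 in wild leaves. The white root libraries at 1 and 10 µM Pi had the same total, 11508234, but different counts in 98.4% of the genes with a count in either and in 92 of the 93 mid-peak genes, and both were used.

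Together the mid-peak genes formed a small part of the root RNA that was larger in mid-age libraries than in the others. They held 0.522% of the counts at day 0 (95% exact Clopper-Pearson interval 0.518 to 0.526%), 1.26% at day 1 (1.25 to 1.27%), 2.43% at day 4 (2.42 to 2.44%), 2.51% at day 7 (2.50 to 2.52%) and 0.435% at day 12 (0.431 to 0.440%). The intervals cover counting error only, since each day is a single library. Both the low ends and the high mid-age values of this course follow from the way the genes were chosen. Shares here and below are of unscaled library totals, without TMM, and need not order libraries as CPM does. In white roots the share was 0.367% (0.363 to 0.370%) at 1 µM Pi, 0.655% (0.650 to 0.660%) at 10 µM and 0.379% (0.375 to 0.383%) at 50 µM. It lay between 0.00291 and 0.0144% in the 15 wild leaf libraries. A lower share can reflect fewer cells that express these genes or less RNA per cell, which cannot be told apart in whole organs.

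The individual genes differed widely in abundance, while the rise and drop that they shared was what they were chosen for. Their maximum of days 4 and 7 ran from 15.6 to 3482 CPM, with a median of 72.0 CPM, and passed 100 CPM in 35 of them. The least abundant still had 199 estimated counts on its peak day. The median level was 2.88 at day 0, 4.83 at day 1, 5.82 at day 4, 6.01 at day 7 and 3.65 at day 12. The median rise from day 0 to the maximum was 2.95 and the median drop from there to day 12 was 2.28, both on the log2 scale and both descriptions of values that chose the genes.

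**Figure D1:**
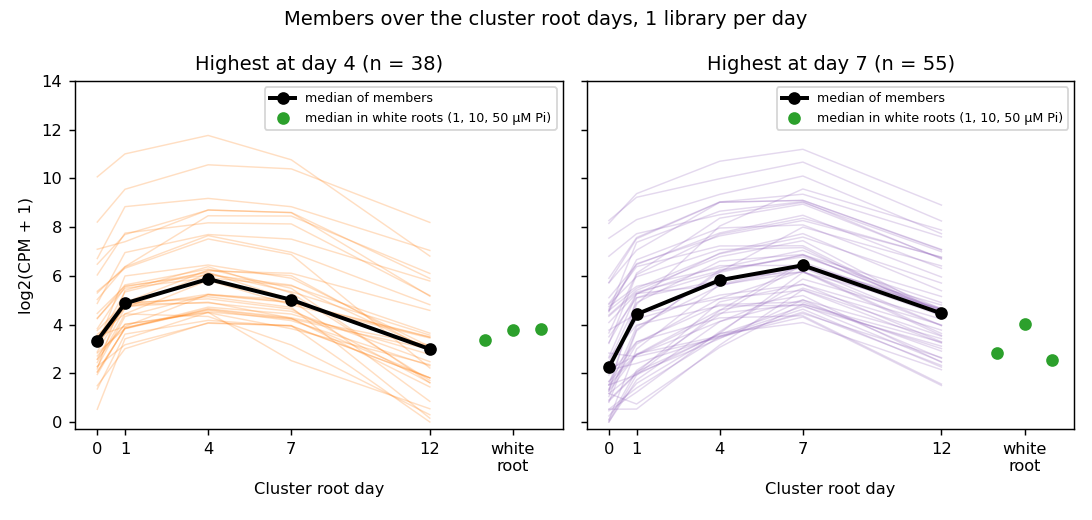
Level of each mid-peak gene (thin lines, log2(CPM + 1)) against cluster root day, with the median (black) and the median in the white root libraries at 1, 10 and 50 µM Pi (green, left to right), for the 38 genes highest at day 4 and the 55 highest at day 7. Medians climb from day 0 and drop by day 12 in both panels, and the day 12 median stays above day 0 only on the right.

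The 2 mid-age days mostly had similar levels, with no day sampled between them. Days 4 and 7 lay within 2-fold of each other (a difference under 1 on the log2 scale) in 74 of the 93 genes. Day 7 exceeded day 4 by at least 2-fold in 14 genes, and day 4 exceeded day 7 by that much in 5. By the higher of the 2 days, 38 genes were highest at day 4 and 55 at day 7. With counts scaled to library totals the latter number was 48.

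The genes highest at day 4 and those highest at day 7 differed at both ends of the course, which the choice of genes limited but did not order. Among the 38 highest at day 4, 13 were higher at day 12 than at day 0 and the median difference of day 12 minus day 0 was -0.33. Among the 55 highest at day 7, 45 were higher at day 12 and the median difference was 1.66. Day 12 was at least 2-fold below day 0 in 11 of the former, within 2-fold in 25 and at least 2-fold above in 2. Of the latter it was at least 2-fold above day 0 in 39 and within 2-fold in 16. Both groups come from the same 5 libraries, so this is a description without a test.

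Day 1 was the one cluster root library that played no part in choosing the genes, and it already stood above day 0 in 91 of 93. It was at least 2-fold above day 0 in 71 genes (76.3%), against 3.3% of the 5486 comparison genes, which met the level and leaf span but not the difference. The median of day 1 minus day 0 was 1.44 in the mid-peak genes (quartiles 1.02 and 2.01) and -0.03 in the comparison genes. Since day 0 had to be low for a gene to be chosen, part of this gap is built in. A single gene, TRINITY_DN10685_c0_g1, named after its values were seen, was highest at day 1, with 20.7 CPM against 19.2 at day 4 and 7.93 at day 7.

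The part of the rise completed at day 1 differed with the peak day. The median was 70.9% of the log2 rise from day 0 to the maximum for the genes highest at day 4, of which 32 of 38 had passed the midpoint. It was 40.1% for the genes highest at day 7, of which 16 of 55 had passed it. Genes with the earlier maximum were further along at day 1; the peak day itself enters this share.

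The 2 genes with the largest difference between peak and ends among those highest at day 4 had narrow courses. TRINITY_DN4738_c0_g1 had 3.53 CPM at day 0 (95% exact Poisson interval of the count 2.69 to 4.61), 41.4 at day 1 (38.1 to 45.0), 82.0 at day 4 (77.1 to 87.2), 38.2 at day 7 (34.9 to 41.8) and 2.26 at day 12 (1.39 to 3.52). The same gene was almost silent outside the cluster root. White roots had 0.130, 0 and 0.0744 CPM at 1, 10 and 50 µM Pi, mature leaves had no count, and the highest of the 15 wild leaf libraries had 0.337 CPM.

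TRINITY_DN16235_c0_g1 had 0.437, 9.64, 21.7, 4.73 and 0.456 CPM on days 0, 1, 4, 7 and 12, with intervals of 19.2 to 24.4 at day 4 and 3.60 to 6.10 at day 7. In contrast to TRINITY_DN4738_c0_g1, it was expressed in white roots, at 19.3, 8.21 and 20.9 CPM for 1, 10 and 50 µM Pi. The 1 and 50 µM libraries were close to its day 4 level and the 10 µM library was lower. Mature leaves had no count and wild leaves at most 0.414 CPM.

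Among the genes highest at day 7, the 2 with the largest difference had higher values at day 7 than at day 4 and lower ones at day 1. TRINITY_DN68884_c0_g1 had 19.97, 41.4, 109, 173 and 20.997 CPM on days 0, 1, 4, 7 and 12, and its day 0 and day 12 intervals (17.8 to 22.3 and 18.1 to 24.3) overlapped. It was at 7.93, 43.3 and 16.1 CPM in white roots at 1, 10 and 50 µM Pi, and at most at 0.584 CPM in any mature leaf and 0.562 in any wild leaf library. TRINITY_DN13179_c0_g1 had 1.39, 5.84, 23.2, 35.6 and 4.47 CPM on the same days and 2.33, 5.58 and 4.53 CPM in white roots. It differed from the former in wild leaves, where the median was 1.299 CPM and the highest library 2.59.

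Other courses were singled out after their values were seen. TRINITY_DN32139_c0_g2 was the most abundant, at 1071, 2058, 3482, 1741 and 111 CPM on days 0, 1, 4, 7 and 12, and alone held 19.5% of the counts of the 93 genes at day 4. TRINITY_DN3176_c0_g1 followed with 284, 663, 1670, 2348 and 479 CPM and 11.9% of those counts at day 7. The largest rise from day 0 belonged to TRINITY_DN9499_c0_g1, at 1.87, 27.5, 263, 758 and 234 CPM, a gene with at most 3.24 CPM in any mature leaf library and 1.12 in any wild leaf library. This last gene had not returned to its starting level at day 12.

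The limits of the rule cut through a continuous range. The last 2 genes inside the difference had 1.505 and 1.501 (TRINITY_DN7469_c0_g1 and TRINITY_DN4035_c0_g1), and the first 2 outside had 1.495 and 1.486 (TRINITY_DN422_c0_g1 and TRINITY_DN13681_c0_g1). At the level, the 2 lowest inside had 4.05 and 4.08 and the 2 highest outside 3.97 and 3.92. At the leaf span, the 2 widest inside had 1.496 and 1.458 and the 2 narrowest outside 1.52 and 1.57.

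**Figure D2:**
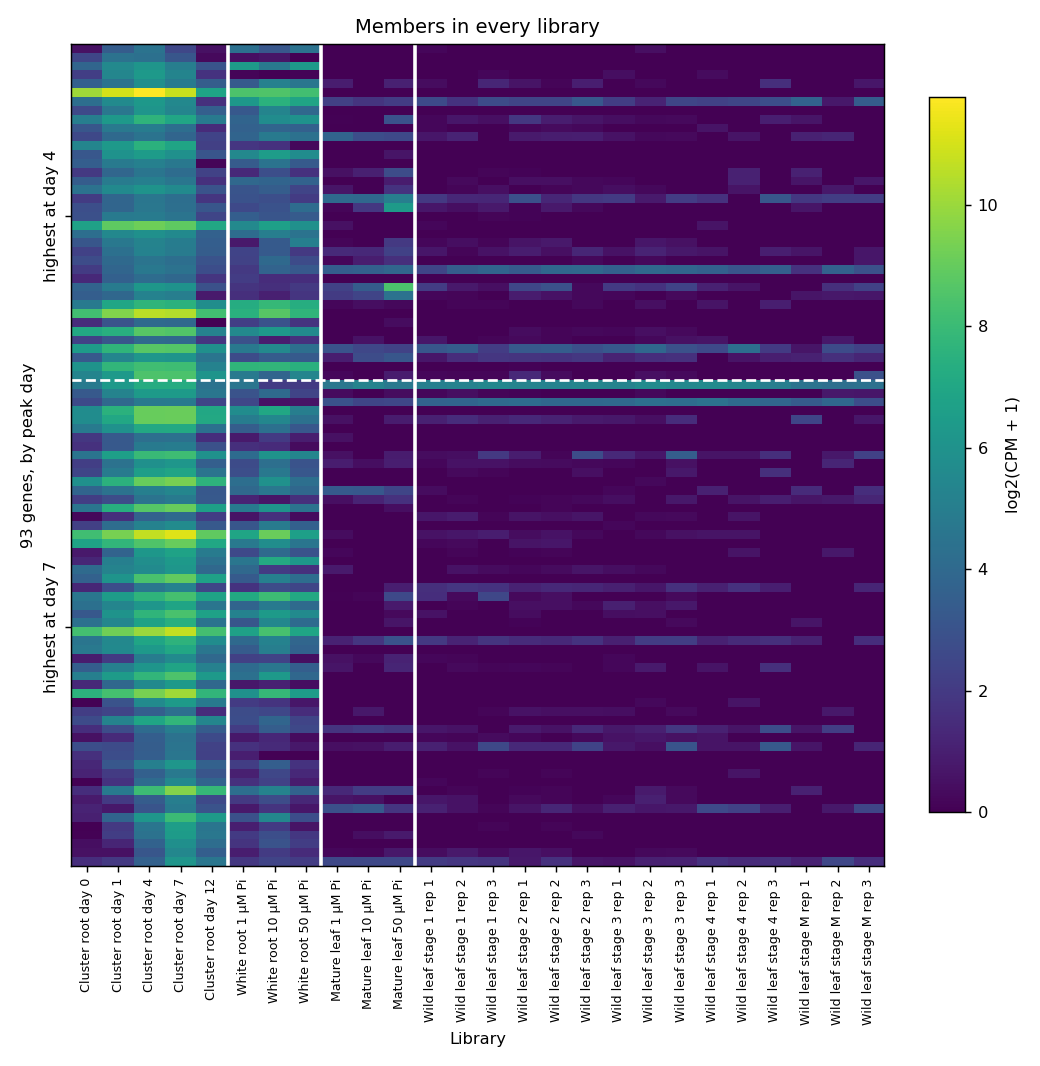
Level (colour, log2(CPM + 1)) of the 93 mid-peak genes (rows, ordered by peak day and by day 7 minus day 4) in all 26 libraries (columns). The root columns on the left carry nearly all of the signal: 40 genes had no count in any mature leaf library and 27 none in any wild leaf library.

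White roots carried these genes at median levels similar to those at both ends of the cluster root course, with wide differences between genes. Every one of the 93 genes had a count in a white root library, and only 2 stayed under 1 CPM in all 3. The median level was 3.08 at 1 µM, 3.81 at 10 µM and 3.31 at 50 µM Pi, beside cluster root medians of 2.88 at day 0 and 3.65 at day 12. The mean over the white root libraries lay within 1 (log2 scale) of day 0 in 49 genes, of day 12 in 37 and of both in 23. The maximum of days 4 and 7 was at least 4-fold above the highest white root library in 59 genes, against 1.62% of the comparison genes. The cluster root side of that comparison chose the genes, so nothing is read from the gap.

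By peak day, which uses the same cluster root values and so gives a description only, the 4-fold excess over white roots was present in 46 of the 55 genes highest at day 7 and in 13 of the 38 highest at day 4. All 14 genes with day 7 at least 2-fold above day 4 had it. At the other end, 6 genes were higher in a white root library than on days 4 and 7. TRINITY_DN17711_c0_g1 was at 76.6 CPM at day 4 and at 76.6, 184 and 116 CPM in white roots at 1, 10 and 50 µM Pi, and TRINITY_DN3737_c0_g1 at 80.8 CPM at day 7 and at 23.2, 144 and 73.9 CPM. For these genes day 4 or 7 was a maximum among the cluster root libraries only.

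The white root library at 10 µM Pi stood out for the mid-peak genes, a pattern in libraries that the choice of genes did not use. It was the highest of the 3 in 69 of 93 genes (74.2%), against 46.6% of the comparison genes. Of the 44 genes with the same level and difference that the leaf span set aside, 19 were highest at 10 µM. In 26 of the 93 genes (28.0%) the 10 µM library was at least 2-fold above both other supplies, against 0.602% of the comparison genes. The 1 µM library exceeded both others that far in 4 genes and the 50 µM library in 2. The share of comparison genes was not counted for these supplies, so nothing is read from them. The median of the 10 µM level minus the mean of the other two was 0.95 on the log2 scale in the mid-peak genes and 0.08 in the comparison genes. The comparison genes were more abundant in white roots, with a median level of 5.29 against 3.33.

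Most genes with this excess had their cluster root maximum at day 7. It was at least 2-fold in 21 of the 55 genes highest at day 7 and in 5 of the 38 highest at day 4, and among the 44 genes set aside by the leaf span it was in 3. TRINITY_DN1142_c0_g1 had the widest, with 6.65, 42.2 and 5.77 CPM at 1, 10 and 50 µM Pi and 1.06, 12.9, 70.7, 256 and 84.0 CPM on cluster root days 0, 1, 4, 7 and 12. TRINITY_DN3176_c0_g1 was next, with 120, 531 and 98.6 CPM. Both were named after their values were seen. With DESeq2 size factors or library totals in place of TMM, 23 genes kept a 2-fold excess and 67 or 64 were highest at 10 µM.

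With 1 library per supply, this excess cannot be told apart from a property of the single 10 µM library. Across the comparison genes the 10 µM library correlated with the day 4 and day 7 cluster roots at r = 0.865 and 0.804, the 1 µM library at 0.868 and 0.846, and the 50 µM library at 0.834 and 0.792. Over the comparison genes the 10 µM library thus lay between the others. Across the 93 genes r with day 7 was 0.723 for the 10 µM library, 0.672 for 1 µM and 0.604 for 50 µM. With day 4 it was 0.774, 0.786 and 0.732 in that order, so the 10 µM library was the closest at day 7 and not at day 4. These correlations are across genes, share libraries and are descriptions.

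**Figure D3:**
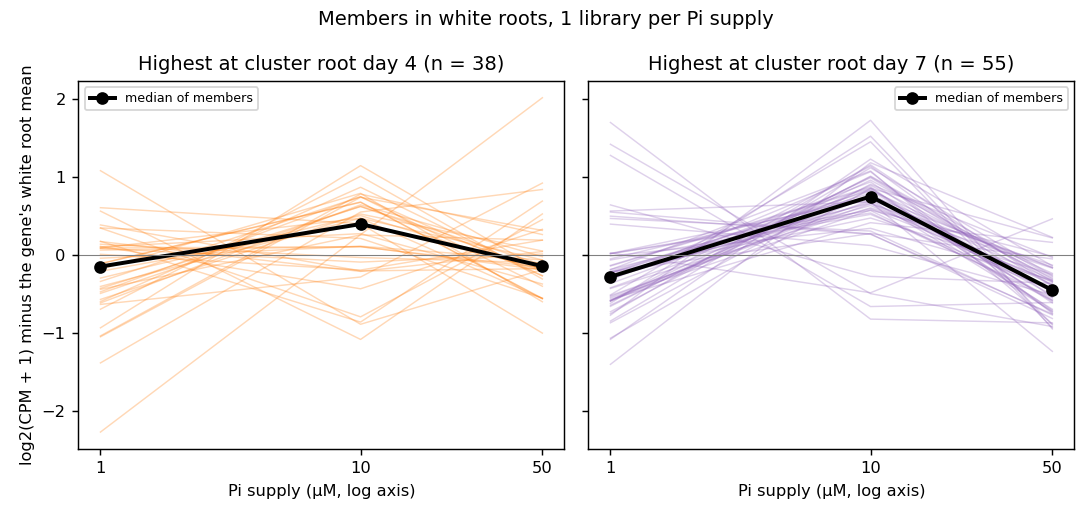
Level of each mid-peak gene in white roots at 1, 10 and 50 µM Pi (log axis), as the difference from that gene's mean over the 3 libraries on the log2(CPM + 1) scale, with the median in black. The 10 µM library is the highest in 46 of the 55 genes highest at day 7 and in 23 of the 38 highest at day 4.

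A rise or fall in proportion to Pi supply was not detectable for the set in white roots. In edgeR's quasi-likelihood test, with a slope per 10-fold Pi in each organ, 0 of the 85 mid-peak genes tested passed in white root at a Benjamini-Hochberg adjusted p under 0.05, where 0.00515% of all 19418 tested genes did. At an unadjusted p under 0.05 there were 6 (7.06%, against 6.28% of all genes), and DESeq2 called 2. A slope shared by white root and mature leaf gave 0 as well (0% of all genes passed). Its unadjusted p was under 0.05 in 5 (5.88%, against 7.60% of all genes), and DESeq2 called 2. A slope cannot represent a maximum at the middle supply.

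A pair of genes was highest at 1 µM Pi in white roots and had the highest median levels of the set in wild leaves. TRINITY_DN3210_c0_g1 had 23.1, 3.20 and 3.06 CPM at 1, 10 and 50 µM Pi and 28.1, 82.2, 149, 149.8 and 20.31 CPM on cluster root days 0, 1, 4, 7 and 12. TRINITY_DN4561_c0_g1 had 4.75, 0.502 and 0.556 CPM and 5.18, 14.8, 26.3, 26.6 and 4.56 CPM. Their white root slopes of -1.81 (SE 0.38) and -1.96 (SE 0.60) per 10-fold Pi did not pass (edgeR, adjusted p = 0.336 and 0.573). Wild leaf libraries ran from 18.8 to 49.7 CPM with a median of 37.5 for the former, and from 5.85 to 20.5 with a median of 14.20 for the latter. Both were picked for their wild leaf level after the values were seen.

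Most mid-peak genes were higher in white roots than in hydroponic mature leaves, in libraries that the rule did not use. The rule did ask for a level in cluster roots, and a gene silent in wild leaves meets its leaf span. In edgeR's test of white root against mature leaf, with Pi as a covariate, 64 of the 93 were higher in white root and 2 lower, 19 did not pass and 8 were too low to test. Of all tested genes, 28.2% were higher and 22.7% lower, and of the comparison genes 27.3% and 20.4%. Every white root library exceeded every mature leaf library in 74 of the 93 genes, against 33.2% of the comparison genes. The 40 genes with no count in any mature leaf library could be tested only through white root counts. Their direction was thereby fixed, in the test and in this count. The median of white root minus mature leaf was 2.47 in the mid-peak genes and 0.08 in the comparison genes, in mean log2(CPM + 1) over 3 libraries each. Without the white root library at 10 µM Pi, 50 genes were higher and 1 lower.

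The genes with the largest differences were absent from leaves. TRINITY_DN32139_c0_g2, introduced above as the most abundant, had 360, 364 and 296 CPM in white roots at 1, 10 and 50 µM Pi and no count in any mature or wild leaf library. It was at least 5881-fold higher in white root, taking 3 counts over the mature leaf group as the floor (edgeR, adjusted p = 6.00e-05), and at least 3798-fold without the leaf library at 1 µM. TRINITY_DN2219_c0_g1 had 178, 416 and 205 CPM and likewise no count in any leaf. It was at least 4609-fold higher (edgeR, adjusted p = 0.000274), and at least 2976-fold without that same leaf library. Such a bound falls when a library with no count is left out, since a smaller total stands behind the 3 counts.

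Only 2 genes were lower in white root, and neither call was stable. The number lower was 5 without the white root library at 1 µM, 1 without that at 10 µM and 0 without that at 50 µM. It was 1 without the mature leaf library at 10 µM, 3 without that at 50 µM and 6 with DESeq2. TRINITY_DN3210_c0_g1 averaged 9.78 ± 11.5 CPM in white root (SD, n = 3) and 29.1 ± 6.82 in mature leaf, a log2 fold change of -2.15 with SE 0.70 (adjusted p = 0.0399 in edgeR's test). The white root spread exceeds the mean because of the 23.1 CPM at 1 µM Pi. TRINITY_DN13053_c0_g1 had 6.70, 6.02 and 3.13 CPM in white roots and 15.3, 14.1 and 32.2 CPM in mature leaves at 1, 10 and 50 µM Pi, so that the groups did not overlap (adjusted p = 0.0176 in edgeR's test, for a log2 fold change of -1.90 with SE 0.49). Both calls were lost without the white root library at 10 µM (adjusted p = 0.132 and 0.0539) or at 50 µM (0.229 and 0.0584). The former was also lost without the mature leaf library at 10 µM (0.0819).

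**Figure D4:**
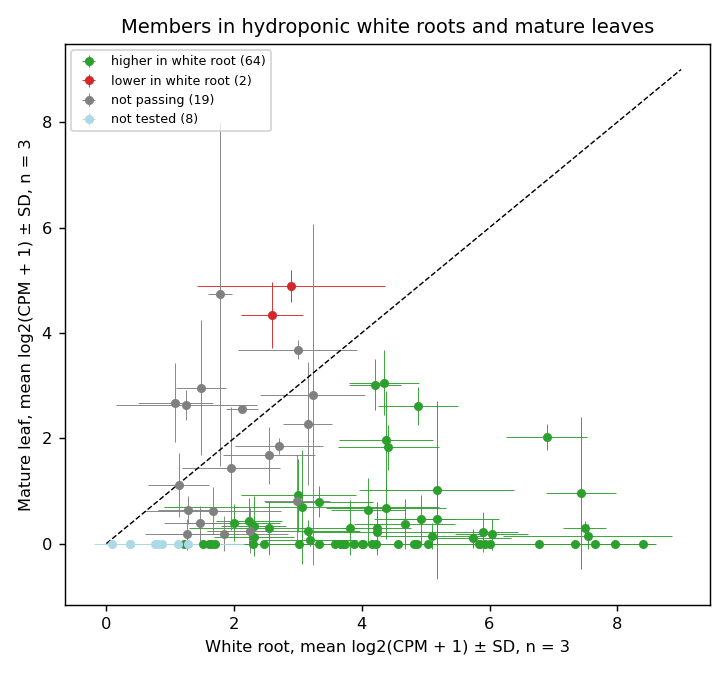
Mean level of each mid-peak gene in mature leaves against white roots (log2(CPM + 1), bars are the SD over the 3 Pi supplies, dashed line marks equality), coloured by edgeR's call. The 64 genes called higher in white root lie below the line, many of them with no leaf count.

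In leaves most mid-peak genes were close to absent, in the field and in hydroponics. In 55 genes no leaf library of any kind exceeded 1 CPM, and in 61 no wild leaf library did. A wild leaf stage mean reached a level of 2 in 7 genes and of 3 in 4, and no wild leaf library exceeded a gene's own maximum of days 4 and 7. A mature leaf library exceeded that maximum in 3 genes, each at 50 µM Pi. These were TRINITY_DN19588_c0_g1 (348 CPM against 74.5 at day 4), TRINITY_DN114768_c0_g1 (85.4 against 24.2) and TRINITY_DN13053_c0_g1 (32.2 against 23.6). The median span of the 5 stage means was 0.27, a value that the rule capped. Stage 1 libraries gave these genes 0.0130 ± 0.00125% of their counts (SD, n = 3, here and for the other stages), and stage 2 libraries 0.0129 ± 0.000146%. The share was 0.0109 ± 0.00132% in stage 3, 0.00703 ± 0.000699% in stage 4 and 0.00371 ± 0.00103% in stage M. These shares are of unscaled totals, and TMM scaling differed between stages. After it, 3 counts stood for 0.469 CPM in stage 1 replicate 1 (total 4848372) and 1.69 CPM in stage M replicate 1 (total 4054878). A lower share therefore need not be a lower CPM. TRINITY_DN3210_c0_g1, with the highest median wild leaf level of the set, had 32.5, 35.6 and 42.1 CPM in the stage 1 libraries. It had 48.3, 41.3 and 31.3 CPM in stage 4 and 21.4, 18.8 and 20.1 CPM in stage M. The fall in share from stage 1 to stage 4 is thus not read as a fall in level. Since leaf stages helped to choose the genes, no test is given.

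Mature leaves at 50 µM Pi were the exception for a few genes. The set's share of counts was 0.0114% (95% exact interval 0.0109 to 0.0118%) at 1 µM, 0.0135% (0.0130 to 0.0141%) at 10 µM and 0.0608% (0.0596 to 0.0619%) at 50 µM. TRINITY_DN19588_c0_g1 made up most of the increase: it had 4.03, 9.77 and 348 CPM at the 3 supplies, above its cluster root values of 12.5, 28.9, 74.5, 63.4 and 6.62 CPM on days 0, 1, 4, 7 and 12. Without it the shares were 0.0110, 0.0126 and 0.0267%. Its leaf slope of 3.77 per 10-fold Pi (SE 0.68) did not pass (edgeR, adjusted p = 0.104).

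The leaf library at 50 µM was the highest in 34 of the 53 genes with a leaf count (64.2%), against 42.4% of the comparison genes. It was at least 2-fold above both others in 10 of the 93 genes (10.8%), against 4.08% of the comparison genes. The comparison genes were far more abundant in mature leaves, with a median level of 5.35 against 0.17. Some ranks of the mid-peak genes rest on a few counts, such as 0, 0 and 5 at 1, 10 and 50 µM for TRINITY_DN31018_c0_g2. One gene passed the test of the leaf slope, where 0.18% of all tested genes and 0.238% of the comparison genes rose: TRINITY_DN114768_c0_g1, with 0.109, 2.75 and 85.4 CPM at 1, 10 and 50 µM Pi, rose by 6.21 on the log2 scale per 10-fold Pi (SE 0.52; edgeR, adjusted p = 0.0246). The call was lost without the 50 µM leaf library (adjusted p = 0.374). At an unadjusted p under 0.05 there were 20 genes (23.5%, against 18.2% of all tested genes), and DESeq2 called 10. No gene passed edgeR's test that the white root and leaf slopes differ (0% of all genes did). Its unadjusted p was under 0.05 in 12 genes (14.1%, against 11.9% of all tested genes), and DESeq2 called 5.

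Few mid-peak genes could be compared between field and hydroponic leaves, because 77 of the 93 were too low to test. The stage M libraries also entered the leaf span that helped to choose the genes, so the comparison is a description from which nothing is read. In edgeR's test, 4 of the remaining 16 were higher in hydroponic mature leaf than at stage M and 0 were lower at an adjusted p under 0.05. Of all 14820 tested genes 18.9% were higher and 15.7% lower, and of the comparison genes 13.1% and 17.6%. The unadjusted p was under 0.05 in 7 of the 16 (43.75%, against 45.9% of all tested genes), and DESeq2 called 4. Without stage M replicate 1, 2 or 3 the number higher was 1, 1 or 2 and the number lower 0, 1 or 0. TRINITY_DN9359_c0_g1 had 3.10, 4.34 and 20.7 CPM in mature leaves at 1, 10 and 50 µM Pi, and a single count in each stage M library. TRINITY_DN338721_c0_g1 had 12.6, 5.87 and 5.14 CPM in mature leaves, and 2, 2 and 0 counts at stage M. Both could be tested only through their mature leaf counts, and growth site, Pi supply and plant source cannot be told apart.

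The course of a mid-peak gene was usually carried by a main isoform. Of the 93 genes, 42 had a single isoform in the data and 51 had 2 to 6 (54.8%, against 46.7% of all genes). Among the 51, the leading isoform at day 4 held a median of 84.6% of the gene's estimated counts and over 80% in 31. The same isoform led at days 4 and 7 in 48 genes, on all of days 0, 4, 7 and 12 in 41, and at days 4 and 7 and in white roots in 43. In 33 genes at least 2 isoforms met the difference of 1.5 by themselves. Isoforms of a gene share reads, so these splits are estimates, and the gene sum they make up chose the genes.

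Of the assembly components, groups of related sequences that the assembler numbers as separate genes, 3 contributed a pair of genes each. The pair of TRINITY_DN4227_c0 had 3.56, 20.5, 58.6, 70.7 and 10.7 CPM (g3) and 4.55, 28.8, 96.2, 117 and 22.3 CPM (g4) on days 0, 1, 4, 7 and 12, with r = 0.990 over the 8 root libraries. The pair of TRINITY_DN833_c0 had r = 0.990 at different abundances, 520 and 84.6 CPM at day 4. The pair of TRINITY_DN1756_c0 differed more (r = 0.910): g1 had 19.3 CPM at day 0 and 13.0, 27.6 and 15.7 CPM in white roots, and g2 had 1.56 and 0.670, 1.14 and 0.348 CPM, while they reached 115 and 80.1 CPM at day 7. Reads can be split between such related sequences, so each pair counts as uncertain evidence of separate genes.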

How the data were processed

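The authors deposited estimated counts per assembled transcript for 26 libraries. RNA was made into stranded libraries after ribosomal RNA removal, per the labels' protocols, and Trim Galore 0.6.6, DESeq2 1.30.1 and kallisto are listed, with no order, per the submitters' processing notes. Not given in the sources used here are the assembly, strand setting and filters. Of a library's values, 30.2 to 59.5% were not whole.

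Transcripts were summed to genes by the ID before its isoform number and rounded for tests. Tests used R 4.3.3 and edgeR 4.0.16 (robust quasi-likelihood, filterByExpr with minimum count 10 and total 15, TMM), with p-values adjusted by Benjamini-Hochberg over all genes tested and DESeq2 1.42.0 as an alternative. White root and mature leaf were fitted with tissue and log10 Pi (3 residual degrees of freedom) or a Pi slope per tissue (2), stage M and mature leaf by group (4). The labels do not say whether hydroponic libraries are from separate plants. With 1 library per tissue and Pi supply, p-values for white root and mature leaf rest on departures from the fitted Pi line. They do not measure a spread between replicates of a condition. For stage M against mature leaf, the spread in mature leaf includes the differences between Pi supplies. Standard errors come from the fold change and its F statistic. Simulated counts were run only through the fits of white root against mature leaf, the leaf Pi slope and stage M against mature leaf. They were drawn from the same count model as the fits, so they do not check a design of 1 library per condition.

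Members and lists were chosen with earlier results of these data known. Genes named for a test are the 2 with the largest change in each direction among those that passed; for the cluster root, the 2 with the largest difference by peak day.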

Additional observations from a re-analysis of the deposited data

How the results depend on the processing

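White root against mature leaf called 66 mid-peak genes, and 51 (without the white root library at 10 µM) to 75 (DESeq2) under the alternatives run. The number meeting the rule was 93 and became 49 with a difference of at least 2 and 154 with the rule applied per transcript; 91 of the 93 met it per transcript and 83 with library totals.

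Pi slopes depended on the tool and on single libraries. DESeq2 called 2 mid-peak genes for the common slope, 2 in white root, 10 in leaf and 5 for the slope difference, with 348, 249, 1095 and 407 over all genes, against 0, 1, 36 and 0 with edgeR. Leaving out 1 library gave 0 to 9 genes in all for the common slope, 0 to 67 in white root, 0 to 219 in leaf (0 to 3 mid-peak genes) and 0 to 103 for the slope difference (0 to 1). No low count filter gave 3 in white root, 72 in leaf and 7 for the slope difference, and DESeq2 size factors 1 for the latter. For stage M against hydroponic leaf, leaving out 1 library gave 1 to 4 mid-peak genes and 2647 to 5371 genes in all, against 4 and 5116, and a test against a 1.5-fold change gave 2940. The cause was not tested. By replicate number, no paired analysis was possible because the groups tested share none: hydroponic libraries carry no number, and the wild leaf stages, which do, helped to choose the genes. White root and mature leaf share their Pi supplies, and in the fit that pairs them by supply, with Pi as a factor, 60 mid-peak genes were higher in white root and 2 lower.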
